A study of Rattus norvegicus with 9 samples.

Results

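Genes of the cell cycle and of DNA replication were followed in ileum, the final stretch of the small bowel, from rats of the Otsuka Long-Evans Tokushima fatty strain. The set holds 36 genes chosen by symbol, of which 35 are in both deposited tables, among 17120 usable gene rows. Bub1b has no expression values here and enters only the promoter search below. The genes were divided by the phase in which their products act into 18 S-phase genes (with those of late G1) and 17 mitotic genes, with the S and G2 cyclin Ccna2 placed among the latter. RNA was sequenced in 3 groups of 3 samples, each labelled as 1 month after surgery. The first 2 groups had Roux-en-Y gastric bypass (RYGB) and differ in the label FDG decreased or FDG increased, and the third had a sham operation. The controls share the background of the strain, in which obesity and diabetes develop without a functional cholecystokinin receptor of type 1. The labels give FDG only as an abbreviation; it is read here as fluorodeoxyglucose, a tracer of glucose uptake. No label ties replicates to separate animals, and the p-values then cover only the spread among these samples, which may be technical.

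The lining of the small intestine is renewed continuously from stem cells and dividing progenitors in the crypts, and their daughters stop dividing as they move onto the villus. A cell committed to divide makes cyclin E and the factors that load the MCM helicase onto DNA, then copies its genome, and only afterwards makes the cyclins, kinases and motor proteins of mitosis. Many of the S-phase genes are known targets of E2F transcription factors. Many mitotic genes are switched on later through a CHR element (the cell cycle genes homology region) and CCAAT boxes in their promoters. In a piece of whole ileum, fewer dividing cells and less RNA of these genes per dividing cell cannot be told apart.

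The promoters of the set show this division into early and late genes mainly in the CHR. Promoters are printed here for 5 genes that the comparisons below return to. These are 2 helicase genes with E2F sites, 2 mitotic genes with a CHR, and Cdt1, whose window holds none of the motifs searched. RefSeq promoter sequences of the rat build GRCr8 were matched by symbol for 28 of the 36 genes, 14 of each phase, with Bub1b among the mitotic genes. The 250 bases before the gene start were searched on both strands for E2F sites (TTTGGCGC, TTTCGCGC, TTTCCCGC, TTTGGCGG or TTTCCCGG), for the CHR (TTTGAA or TTTAAA) and for CCAAT. In the sequences, read 5′ to 3′ on the strand of the gene and ending at the base before its start, capitals mark these motifs on either strand, and adjoining or overlapping motifs run together.
Mcm5 (chr19:13488563-13488812, + strand): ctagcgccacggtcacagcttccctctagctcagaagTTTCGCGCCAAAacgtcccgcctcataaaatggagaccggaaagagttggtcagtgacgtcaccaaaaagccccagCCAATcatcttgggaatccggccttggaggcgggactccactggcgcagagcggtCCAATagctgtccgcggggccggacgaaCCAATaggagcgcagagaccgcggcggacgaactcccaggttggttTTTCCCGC
Mcm6 (chr13:42404353-42404602, - strand): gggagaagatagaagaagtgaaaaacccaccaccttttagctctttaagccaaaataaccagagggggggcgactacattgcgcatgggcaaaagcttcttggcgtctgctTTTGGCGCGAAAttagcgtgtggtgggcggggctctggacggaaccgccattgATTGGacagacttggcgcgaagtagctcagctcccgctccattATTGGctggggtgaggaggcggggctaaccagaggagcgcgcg
Plk1 (chr1:186147408-186147657, + strand): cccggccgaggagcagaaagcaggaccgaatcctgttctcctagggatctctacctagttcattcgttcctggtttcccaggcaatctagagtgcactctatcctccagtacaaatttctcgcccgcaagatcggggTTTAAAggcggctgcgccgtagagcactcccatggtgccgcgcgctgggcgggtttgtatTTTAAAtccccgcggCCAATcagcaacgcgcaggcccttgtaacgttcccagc
Cenpa (chr6:31431553-31431802, - strand): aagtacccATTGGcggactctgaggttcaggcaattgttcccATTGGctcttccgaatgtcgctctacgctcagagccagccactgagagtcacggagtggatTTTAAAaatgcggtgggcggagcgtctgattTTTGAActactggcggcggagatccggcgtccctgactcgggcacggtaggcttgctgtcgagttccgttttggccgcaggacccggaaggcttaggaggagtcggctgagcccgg
Cdt1 (chr19:67528999-67529248, + strand): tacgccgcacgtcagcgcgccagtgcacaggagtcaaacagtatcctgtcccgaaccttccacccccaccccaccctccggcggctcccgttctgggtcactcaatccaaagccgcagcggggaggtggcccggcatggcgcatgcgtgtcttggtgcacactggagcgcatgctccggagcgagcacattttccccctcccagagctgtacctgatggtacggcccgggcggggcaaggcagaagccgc

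A CHR was found in 13 of 14 mitotic promoters (92.9%) and in 2 of 14 S-phase promoters (14.3%), beside 16.9% of the 8216 promoters of genes tested here. The mitotic promoter without a CHR was that of Bub1b. A CHR together with a CCAAT stood in 11 mitotic promoters (78.6%), in 0 S-phase promoters and in 6.13% of the promoters of genes tested. A CCAAT, with or without a CHR, stood in 9 S-phase promoters (64.3%) and 11 mitotic promoters (78.6%), beside 35.3% of the promoters of genes tested. An E2F site stood in 5 S-phase promoters (35.7%) and in 2 mitotic promoters (14.3%), beside 5.17% of the promoters of genes tested. Mcm5 and Mcm6 each hold an E2F site in which matches on both strands overlap, and the Plk1 promoter holds a CHR at position -53, counted back from -1 at the base before the start, and a CCAAT at -38. Over all 33469 promoters of the reference table, 25.4% hold a CHR, 34.0% a CCAAT and 2.97% an E2F site. These matches describe letters in a window and were not tested as binding sites.

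**Figure D1:**
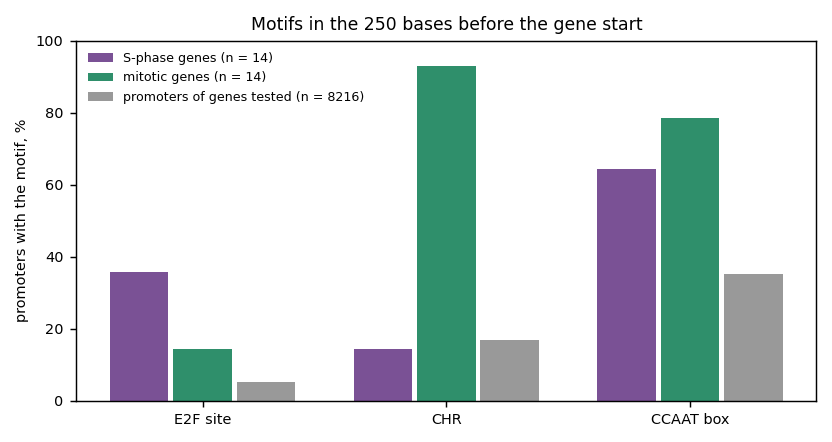
Share of promoters (vertical axis, percent) that hold an E2F site, a CHR or a CCAAT box in the 250 bases before the gene start. Bars stand for the S-phase genes, the mitotic genes and all promoters of genes tested, and the CHR is in 92.9% of the mitotic and 14.3% of the S-phase promoters.

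Values are FPKM, which divide fragment counts by transcript length and by library size, and the authors scaled each of the 2 tables separately. The RYGB table holds FDG-decreased and FDG-increased ileum, and the sham table holds FDG-increased and sham ileum. The sum of FPKM per library ran from 465697.5 to 864510.6; the depth in reads is unknown. The labels name 3 FDG-increased samples, but the tables hold 4 distinct FDG-increased libraries: the sham table's FDG-increased columns 2 and 3 equal columns 1 and 2 of the RYGB table times 1.023 and 1.0204, with 99.985% and 99.941% of genes within 1% of that ratio. Column 1 of the sham table and column 3 of the RYGB table are each in 1 table only. Sham replicate 1 stood apart in markers of gut region, with the ileal bile acid binding protein Fabp6 at 22.6 FPKM against 8380 and 11300 FPKM in sham replicates 2 and 3, and Lct, the lactase gene typical of jejunum, at 253 FPKM where the other 2 had 8.6 and 0.317 FPKM. Counts by direction and medians against sham ileum are given with and without sham replicate 1. Tests, sums, other counts and the values of single genes and libraries include it unless stated.

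All 35 genes passed the level filter, which asked for an average of 1 FPKM across a table. In sham ileum Pcna, the sliding clamp of the replication fork, had the highest level at 101 ± 34.3 FPKM (SD, n = 3), and Ccne1, the cyclin that starts S phase, the lowest at 2.43 ± 0.274 FPKM (SD, n = 3). The 6 subunits of the MCM helicase, which unwinds DNA as a ring of all of them, did not stand at equal levels. In sham ileum Mcm7 and Mcm6 had 24.1 ± 2.0 and 22.8 ± 2.13 FPKM, Mcm4 had 18.9 ± 6.0, Mcm2 and Mcm5 had 14.1 ± 2.13 and 13.5 ± 1.3, and Mcm3 had 10.5 ± 1.71 (SD, n = 3 each). Neighbours in this order lay within their spread of each other, except that Mcm3 lay below Mcm5 by more than either SD, with no overlap of their libraries. The stem and progenitor marker Olfm4 was present in every library, at 249 to 1200 FPKM over both tables.

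The first comparison was between RYGB ileum with FDG increased and sham ileum. Most cell cycle genes lay lower in FDG-increased than in sham ileum, the S-phase genes more so than the mitotic genes, but no gene of the set passed the test. Of 18 S-phase genes 17 lay below sham ileum, with a median difference of -0.40 on the log2(FPKM + 1) scale, and of 17 mitotic genes 15 lay below, with a median of -0.24. Of all 10801 genes tested 35.3% lay below sham and 64.7% above, and their median was 0.13. By limma with Benjamini-Hochberg adjustment 0 of the 35 were called at 0.05, where 4 of all genes (0.037%) were. Of the 35 genes 8 had a limma unadjusted p under 0.05, all 8 lower, beside 7.84% of all genes in either direction, 1.69% lower and 6.15% higher. Same-numbered libraries of the sham table did not deviate together (correlations 0.35, -0.50 and -0.25), so a block on the number reflects no known pairing. With that replicate block 0 of the 35 (0.361% of all genes) were called by limma, and 4 (6.6% of all genes) had an unadjusted p under 0.05. In 13 genes, 9 of S phase and 4 of mitosis, all 3 FDG-increased libraries lay below all 3 sham libraries, a separation found for 4.44% of all genes tested. In 0 of the 35 did all FDG-increased libraries lie above all sham libraries, which 10.7% of all genes did. The difference between the S-phase and mitotic medians was not tested. Lane differed in part between the groups. All 3 sham libraries came from lane 7 by their labels. The FDG-increased columns were given the lane of the RYGB table column with the same values. Column 2 was thus taken as lane 7 and column 3 as lane 4, and the lane of column 1 is unknown. By their own replicate numbers columns 2 and 3 would both be lane 4 and column 1 lane 7, and the labels do not settle which holds. With sham and column 2 alone, a single FDG-increased library taken as lane 7, the medians were -0.55 and -0.35. The part of lane was not tested.

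Among the genes of licensing and entry into S phase, Cdt1, Cdc6 and Ccne1 separated from sham, and Ccnd1 and Cdk2 did not. Cdt1 loads the MCM helicase onto DNA at replication origins. Cdt1 stood at 2.96, 3.36 and 2.17 FPKM in the FDG-increased libraries and at 5.77, 5.2 and 5.39 FPKM in the sham libraries. The groups did not overlap and the sham values lay close together, so that the gap was wider than the spread of either group. Cdt1 had a mean of 2.83 ± 0.608 against 5.45 ± 0.288 FPKM (SD, n = 3 each), a log2 difference of -0.76 (SE 0.23). Its limma unadjusted p was 0.00899, and its Benjamini-Hochberg adjusted p 0.494. Cdc6, the partner of Cdt1 in loading the helicase, stood at 1.53, 1.88 and 1.53 FPKM against 2.61, 4.84 and 3.12 FPKM in sham ileum, a log2 difference of -0.75 (SE 0.25). Its groups did not overlap either, and most of the spread came from sham replicate 2, the highest of the 6 libraries. For Cdc6 the limma unadjusted p was 0.0154 and the Benjamini-Hochberg adjusted p 0.552. Ccne1 stood at 1.56, 1.33 and 1.14 FPKM against 2.74, 2.26 and 2.29 FPKM, without overlap, and differed by -0.55 (SE 0.212). Ccnd1, the cyclin that carries growth signals into G1, overlapped, at 23.5, 19.8 and 35.8 FPKM against 29.8, 49.9 and 41.0 FPKM. Cdk2, the kinase that cyclin E activates, differed by -0.01 (SE 0.317).

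Of the MCM ring, Mcm5, Mcm6 and Mcm7 separated from sham and Mcm2, Mcm3 and Mcm4 did not. Mcm6 stood at 16.5, 14.3 and 14.5 FPKM against 22.3, 25.1 and 20.9 FPKM in sham ileum. All FDG-increased values thus lay well under the lowest sham value, with means of 15.1 ± 1.21 against 22.8 ± 2.13 FPKM (SD, n = 3 each) and a log2 difference of -0.56 (SE 0.238). Mcm5 stood at 11.2, 9.09 and 6.34 against 12.1, 14.6 and 13.8 FPKM and differed by -0.58 (SE 0.264). Mcm7 stood at 20.3, 17.4 and 21.2 against 22.1, 26.1 and 24.2 FPKM and differed by -0.29 (SE 0.245). In Mcm5 and Mcm7 the nearest libraries of the groups almost met. Mcm2, Mcm3 and Mcm4 differed by -0.34, -0.38 and -0.19, with overlapping groups, and Gins2, a subunit that joins the active helicase, by -0.29.

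Nucleotide supply was divided. Rrm2, the regulated subunit of ribonucleotide reductase, which makes deoxynucleotides, stood at 17.4, 16.0 and 26.2 FPKM against 34.3, 45.4 and 28.4 FPKM, without overlap. It differed by -0.83 (SE 0.307), the largest among the S-phase genes on this scale, with a limma unadjusted p of 0.0238 and a Benjamini-Hochberg adjusted p of 0.59. With a pseudocount of 0.1 Cdc6 at -1.01 and Cdt1 at -0.94 lay below Rrm2 at -0.86. Rrm1, the other subunit of that enzyme, which is made more evenly through the cycle, differed by -0.27 (SE 0.337). Tk1, the thymidine kinase of the salvage pathway, stood at 10.5, 9.41 and 11.8 FPKM against 14.3, 14.8 and 14.3 FPKM, without overlap, and differed by -0.42 (SE 0.227). Tyms, which makes thymidylate afresh, was the only S-phase gene on the other side of 0, at 0.17 (SE 0.476), with FDG-increased values of 22.1 to 64.2 FPKM and sham values of 17.1 to 43.6 FPKM. At the fork, Uhrf1, which keeps DNA methylation on copied strands, stood at 7.48, 10.3 and 5.82 FPKM against 11.5, 14.7 and 12.9 FPKM. Its groups did not overlap, and it differed by -0.69 (SE 0.265). Pcna overlapped and differed by -0.16 (SE 0.407).

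**Figure D2:**
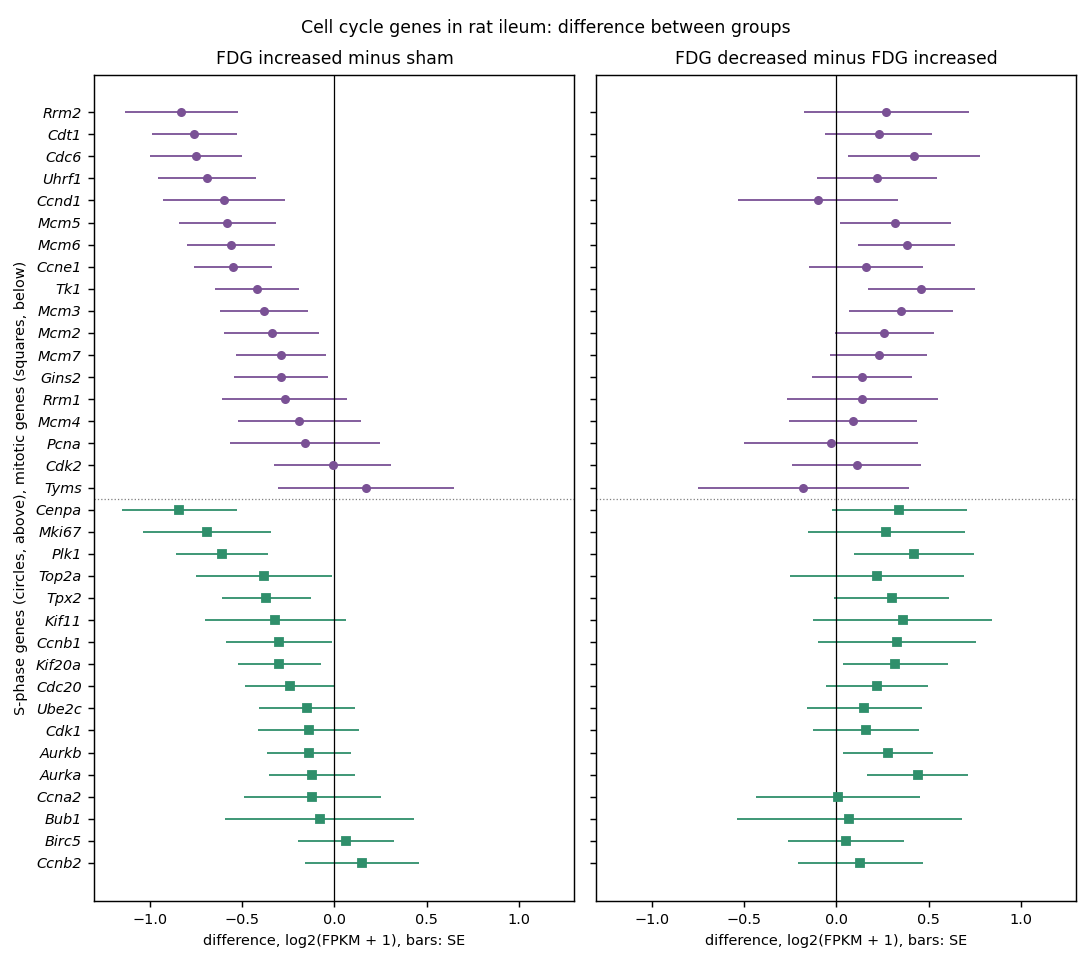
Difference of each of the 35 genes on the log2(FPKM + 1) scale (horizontal axis, points with SE bars), for FDG increased minus sham on the left and FDG decreased minus FDG increased on the right, with S-phase genes as circles above and mitotic genes as squares below. On the left 32 of 35 points lie below 0, and on the right 32 of 35 lie above 0, and the FDG-increased libraries enter both sides.

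Among the mitotic genes Cenpa, Plk1, Kif20a and Aurkb separated from sham. Cenpa, the histone variant that marks centromeres, stood at 3.01, 4.97 and 8.06 FPKM against 10.6, 9.6 and 9.11 FPKM in sham ileum. The sham libraries lay close together and the FDG-increased libraries were spread widely below them. The difference was -0.84 (SE 0.313), with a limma unadjusted p of 0.0255 and a Benjamini-Hochberg adjusted p of 0.605. Plk1, a kinase that drives entry into and passage through mitosis, stood at 8.04, 10.3 and 7.05 FPKM against 15.6, 12.7 and 11.8 FPKM and differed by -0.61 (SE 0.248). Kif20a, a motor of the dividing midzone, stood at 8.18, 8.29 and 7.84 FPKM against 9.16, 11.9 and 9.84 FPKM, and differed by -0.30 (SE 0.225). Aurkb, the kinase of the chromosomal passenger complex, stood at 14.6, 13.6 and 15.5 FPKM against 16.2, 15.6 and 16.5 FPKM. Its nearest libraries almost met, and it differed by only -0.14 (SE 0.227). Mki67, which coats mitotic chromosomes and is the usual marker of dividing cells, stood at 14.6, 24.8 and 31.2 FPKM against 30.2, 48.5 and 34.0 FPKM. A single library of each group crossed, and Mki67 differed by -0.69 (SE 0.348). Top2a, which untangles DNA, stood at 23.0, 27.7 and 47.0 FPKM against 31.1, 58.4 and 37.4 FPKM, with more overlap. Tpx2, which builds spindle fibres and activates the kinase Aurka, stood at 7.4, 8.57 and 10.9 FPKM against 11.4, 12.9 and 10.8 FPKM, and its highest FDG-increased library passed the lowest sham library.

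The remaining 10 mitotic genes overlapped between the groups. Of the cyclins and the kinase they activate, Ccnb1 differed by -0.30 (SE 0.286), as much as Kif20a. Cdk1, Ccna2 and Ccnb2 differed less, by -0.14, -0.12 and 0.15. The checkpoint kinase gene Bub1 differed by -0.08 with the widest SE of the set, 0.511. Cdc20 and Ube2c, which drive the destruction of the cyclins, differed by -0.24 and -0.15. The spindle motor Kif11 differed by -0.32, the spindle pole kinase Aurka by -0.12, and Birc5, a partner of Aurkb, by 0.06.

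**Figure D3:**
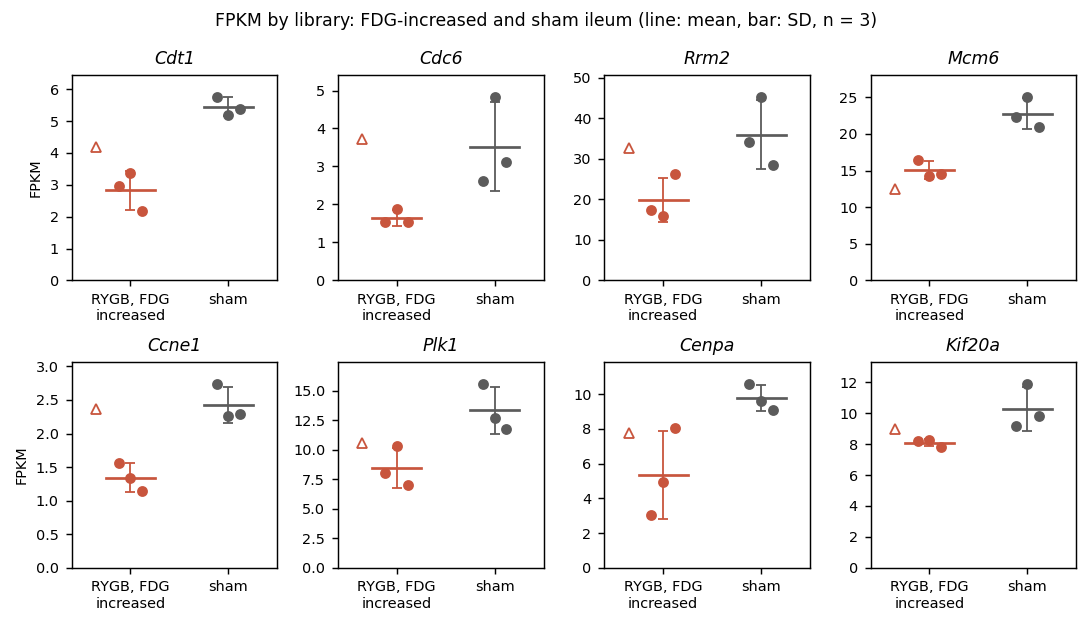
FPKM (vertical axis, from 0) of 8 genes in each FDG-increased and sham library of the sham table, with mean and SD. The open triangle is the FDG-increased library of the RYGB table that is not in the sham table, put on its scale, which lies below all sham points for Cdt1, Mcm6, Plk1, Cenpa and Kif20a and among them for Cdc6, Rrm2 and Ccne1.

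The FDG-increased library that is only in the RYGB table took no part in this comparison. On the scale of the sham table, by the factor 1.0217 from the shared libraries, 10 of the 13 separated genes lay below all sham libraries in it too. For all 480 genes that separated in this direction the share was 66.9%, and for the 10801 genes tested it was 34.5%. Cdt1 stood there at 4.18 FPKM, Mcm6 at 12.5, Mcm5 at 8.55, Uhrf1 at 9.16 and Plk1 at 10.6 FPKM, each below the lowest sham value. Cdc6, Ccne1 and Rrm2 stood at 3.73, 2.37 and 32.7 FPKM, inside the sham range. Of the 18 S-phase genes 9 lay below all sham libraries in it and 0 above. Of the 17 mitotic genes 5 lay below (29.4%) and 4, Ccnb1, Ccnb2, Aurka and Ube2c, above (23.5%), shares near the 34.5% and 16.1% of all genes. This is a single library, and no difference between the phases was tested.

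Leaving out sham replicate 1, the library with the markers of upper intestine, 18 S-phase and 15 mitotic genes lay below sham. The medians were then -0.46 and -0.29, where 36.3% of all genes lay below and their median was 0.15. In this setting 17 genes separated, 12 of S phase and 5 of mitosis, beside 8.24% of all genes. The median of the S-phase genes stayed between -0.37 and -0.49 when any 1 library was left out. That of the mitotic genes moved to -0.49 without FDG-increased column 3, to -0.13 without sham replicate 2, to -0.14 without FDG-increased column 1 and to -0.17 without column 2. The 8 genes at a limma unadjusted p under 0.05 became 2 without sham replicate 2, and 4 without each other library except FDG-increased column 3, where 7 remained in number.

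Markers of other cell types and of gut region also differed between these groups. Of 10 epithelial markers all 10 were higher in FDG-increased than in sham ileum (median 0.42, 0 past the test), with summed levels of 6470 to 8340 against 4160 to 7050 FPKM. Of 7 crypt stem cell markers 6 were lower (median -0.16), at 454 to 1130 against 424 to 1140 FPKM in sum. Of 11 T and NK markers 10 were higher (median 0.93), summing to 136 to 229 against 50.5 to 98.0 FPKM. By limma 9 of these 11 had an unadjusted p under 0.05, beside 7.84% of all genes. The 8 measured B and germinal centre markers summed to 17.5 to 24.4 against 13.7 to 19.4 FPKM, with Pax5 at 0 in a library of each group and Ms4a1 in a sham library. Of 7 macrophage markers 5 were higher (median 1.08, 5 at an unadjusted p under 0.05), at 314 to 475 against 111 to 256 FPKM in sum. All 7 tested Paneth cell markers were higher (median 0.97, 4 at a limma unadjusted p under 0.05), at 23800 to 36100 against 9010 to 21300 FPKM. All 4 ileal bile acid genes were higher too (median 2.18). All 7 adipocyte markers were lower (median -1.26), at 75.4 to 116 against 75.3 to 583 FPKM. Without sham replicate 1 the medians were 0.57 for the epithelial, -0.33 for the crypt, 1.01 for the T and NK, 1.3 for the macrophage, 0.68 for the Paneth, 1.10 for the ileal bile acid and -2.05 for the adipocyte list. Counts by direction in these 7 lists stayed the same without it, except that 3 of 4 ileal bile acid genes were higher. Of 5 upper intestine genes 4 were lower (median -3.04, 1 at a limma unadjusted p under 0.05), and 3 were lower without sham replicate 1 (median -0.99). None of the genes in these lists was called by limma. Relative to the mean of the epithelial markers, an alternative chosen after the data were seen, the S-phase median was -0.82 and the mitotic median -0.66, with a median of -0.28 over all genes. Their part in the result was not tested.

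Within RYGB ileum the comparison ran the other way: nearly all cell cycle genes lay higher in FDG-decreased than in FDG-increased ileum, by small amounts and without a call. This comparison and the last share FDG-increased libraries, so their directions are not independent. Of 18 S-phase genes 15 were higher, with a median of 0.23, and of 17 mitotic genes 17, with a median of 0.27, where 55.2% of 10739 genes were higher and 44.8% lower, and their median was 0.02. By limma with Benjamini-Hochberg adjustment 0 of 35 genes were called, as were 0 of all genes (0.0%), where 110 genes (1.02%, with 0.363% higher and 0.661% lower) and 0 of the 35 had an unadjusted p under 0.05. Only Mcm6 and Aurkb separated, 2 of 35, beside 1.95% of all genes in this direction. Markers of gut region and cell type differed as well: 5 of 5 upper intestine genes were higher (median 2.10, 5 at an unadjusted p under 0.05 with the replicate block), 8 of 9 enterocyte markers were higher (median 0.66, 7 with the block) and 7 of 7 macrophage markers were lower (median -0.28, 1 with the block). With the block 9.52% of all genes had a limma unadjusted p under 0.05. The part of these markers in the difference was not tested.

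Same-numbered RYGB libraries deviated together, so the pairs are the closer comparison. With the number as a replicate block limma called 122 of all genes (1.14%) and 0 of the 35, and 5 of the 35 had an unadjusted p under 0.05 (all higher, beside 9.52% of all genes in either direction and 4.81% higher). These 5 were Aurka, Tk1, Plk1, Ccnb1 and Mcm6. Aurka stood at 11.0, 14.3 and 17.7 FPKM in FDG-decreased libraries 1 to 3 and at 9.08, 9.65 and 11.9 FPKM in the FDG-increased libraries of the same numbers. It was higher in FDG-decreased ileum in each pair, with a log2 difference of 0.44 (SE 0.273 without the block and 0.148 with it), and limma with the block and Benjamini-Hochberg gave an adjusted p of 0.302. Tk1 stood at 11.5, 12.9 and 20.7 against 9.19, 11.6 and 10.3 FPKM, a difference of 0.46 that came mostly from pair 3. Plk1 stood at 11.7, 8.77 and 18.2 against 10.1, 6.91 and 10.3 FPKM, a difference of 0.42, again widest in pair 3. Ccnb1 stood at 15.2, 34.2 and 34.7 against 13.5, 23.4 and 28.2 FPKM, so that the pairs differed far more from each other than the groups did. Mcm6 stood at 16.7, 14.9 and 22.7 against 14.0, 14.2 and 12.3 FPKM, and its groups did not overlap.

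Of the other genes with the widest differences, Aurkb, Cdc6 and Mcm5 were higher in all 3 pairs, and Mcm3, Kif11 and Cenpa were not. Aurkb stood at 15.6, 17.6 and 19.9 against 13.3, 15.2 and 14.3 FPKM, without overlap, and differed by 0.28 (SE 0.244). Cdc6 stood at 1.89, 4.25 and 4.16 against 1.84, 1.49 and 3.65 FPKM, a difference of 0.42 carried by pair 2. Mcm3 stood at 10.5, 6.19 and 9.92 against 7.68, 6.67 and 5.58 FPKM and Mcm5 at 11.2, 6.76 and 12.7 against 8.89, 6.21 and 8.37 FPKM. In Mcm3 pair 2 went the other way, and in Mcm5 all pairs were higher in FDG-decreased ileum. Kif11 stood at 11.7, 39.4 and 28.6 against 12.4, 26.2 and 18.7 FPKM, lower in pair 1 and higher in pairs 2 and 3. Cenpa stood at 7.53, 5.88 and 14.6 against 4.86, 7.9 and 7.61 FPKM, and there pair 2 was the exception. The S-phase genes below 0 were Tyms at -0.18, Ccnd1 at -0.10 and Pcna at -0.03, each under its SE.

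Most of the difference came from pair 3. There 34 of 35 genes were higher in FDG-decreased ileum (97.1%, beside 60.6% of all genes), with medians of 0.33 for the S-phase and 0.45 for the mitotic genes. In pair 2, 24 of 35 were higher (68.6%, beside 51.9%), with medians of 0.13 and 0.31, and in pair 1, 21 of 35 (60.0%, beside 45.0%), with medians of 0.02 and 0.06. Higher in all 3 pairs were 7 S-phase and 6 mitotic genes, and lower in all 3 were 0, beside 17.2% and 12.7% of all genes. Without FDG-decreased library 3 the medians were 0.06 and 0.09, and 10 S-phase and 13 mitotic genes were higher; with pairs 1 and 2 alone the medians were 0.10 and 0.15. Without FDG-increased library 1 the mitotic median was 0.10, and without FDG-decreased library 1 it was 0.46. Pairs 1 and 2 were each run on a single lane, lanes 7 and 4, while pair 3 came from lanes 5 and 4. Both libraries of pair 3 had low immune markers, with T and NK markers summing to 32.9 and 25.1 FPKM where the other 2 pairs had 142 to 231 FPKM, and macrophage markers to 58.6 and 38.6 FPKM where the others had 181 to 367 FPKM. The part of lane or of immune cells in the difference was not tested.

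**Figure D4:**
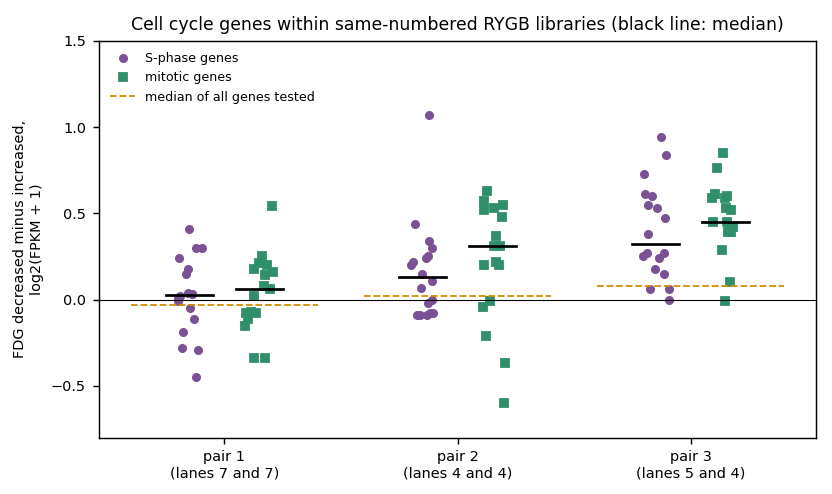
Difference of each gene between same-numbered RYGB libraries, FDG decreased minus FDG increased on the log2(FPKM + 1) scale (vertical axis), for the 3 pairs, with S-phase genes as circles, mitotic genes as squares and medians as black lines. The points are nearly balanced about 0 in pair 1 and lie almost wholly above 0 in pair 3, where the medians are 0.33 and 0.45.

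FDG-decreased ileum and sham ileum are in different tables, so their values, multiplied by 1.0217 for the RYGB table, were set side by side without a test. Of 18 S-phase genes 13 were lower in FDG-decreased ileum (median -0.20), and of 17 mitotic genes 13 were higher (median 0.13), where 33.3% of all genes were lower and 66.7% higher, and their median was 0.13. The mitotic genes thus lay near all genes, and the difference between the phases was not tested. Cdt1 alone separated, at 3.38, 3.31 and 5.16 FPKM against 5.77, 5.2 and 5.39 FPKM, 1 of 35 genes beside 1.86% of all genes lower. The third library nearly reached the lowest sham value. Without sham replicate 1, 15 S-phase genes were lower (median -0.28) and 13 mitotic genes higher (median 0.10), and 6 S-phase genes separated, beside 4.31% of all genes lower: Cdt1, Ccnd1, Mcm2, Mcm3, Mcm5 and Mcm7. The cyclin Ccnb2 stood at 26.6, 42.7 and 42.2 against 25.8, 29.3 and 24.2 FPKM, and Aurka at 11.2, 14.6 and 18.1 against 11.5, 11.6 and 8.54 FPKM, both with a library inside the sham range.

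The balance between the phases can be read within each library, where a common scale factor largely cancels. The mean log2 value of the S-phase genes minus that of the mitotic genes was -0.36, -0.59 and -0.56 in the FDG-decreased libraries and -0.34, -0.54 and -0.49 in the FDG-increased libraries of the RYGB table. In the sham table it was -0.16, -0.34 and -0.54 in the FDG-increased and -0.33, -0.19 and -0.08 in the sham libraries. All 3 FDG-decreased libraries and 3 of the 4 distinct FDG-increased libraries thus lay below all sham libraries in this balance, some only narrowly below sham replicate 1. FDG-increased column 1 of the sham table lay among the sham libraries, also without sham replicate 1. The balance also went with lane. In the RYGB table the lane 7 libraries, FDG-decreased 1 and FDG-increased 1, stood at -0.36 and -0.34, beside -0.33 in sham replicate 1. Its libraries of lanes 4 and 5 stood at -0.49 to -0.59. All 3 sham libraries came from lane 7, and the part of lane was not tested. The mean level of the S-phase genes itself was 3.65, 3.58 and 3.84 in the FDG-increased and 3.92, 4.32 and 4.09 in the sham libraries. The mitotic mean was 3.81, 3.92 and 4.38 against 4.25, 4.51 and 4.17, where FDG-increased column 3 lay inside the sham range.

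**Figure D5:**
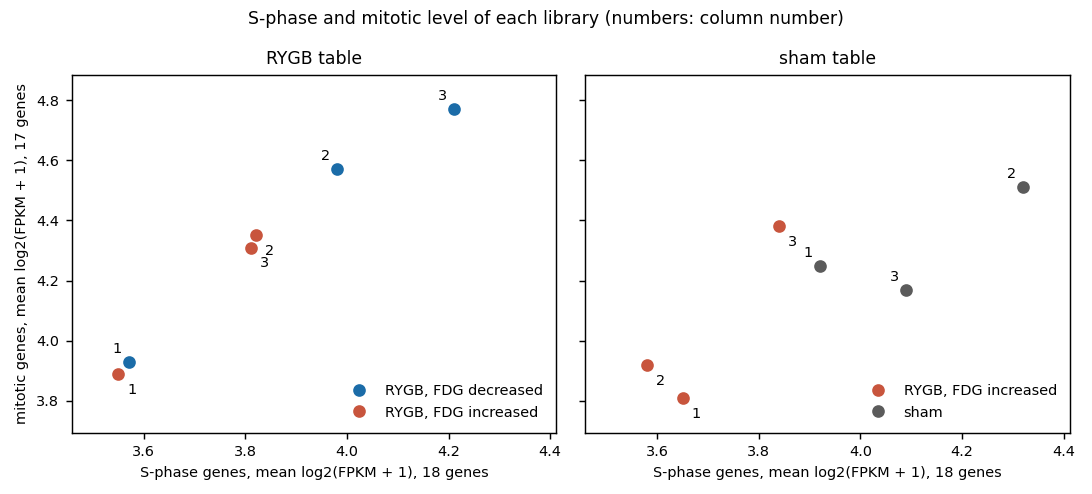
Mean log2(FPKM + 1) of the 18 S-phase genes (horizontal axis) and the 17 mitotic genes (vertical axis) in each library, by table and group, with column numbers. FDG-decreased library 3 is highest in the RYGB table at 4.21 and 4.77, and the FDG-increased libraries of the sham table lie left of all sham libraries.

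The genes of the set also differed among libraries of the same group, and not all in 1 direction. In each group library 2 had far more of some genes than library 1. For Bub1 the ratio was 4.52 in FDG-decreased, 3.41 in FDG-increased (RYGB table) and 2.73 in sham ileum, for Tyms 3.79, 2.91 and 2.56, for Kif11 3.37, 2.11 and 1.91, and for Top2a 3.22, 1.7 and 1.88. Others were flat or lower in the same libraries, among them Plk1 with ratios of 0.749, 0.686 and 0.812, Cdc20 with 0.914, 0.827 and 0.856, and Cdt1 with 0.978, 0.646 and 0.902. Both phases were in either kind. The sham ratio rests on sham replicate 1, and the RYGB ratios do not. Across the 35 genes the log2 ratios had a Pearson correlation of 0.81 between FDG-decreased and FDG-increased, 0.74 between FDG-decreased and sham and 0.62 between FDG-increased and sham ileum, beside 0.82, 0.64 and 0.53 over 10739 genes, as a description over genes that share libraries. In RYGB ileum libraries 1 and 2 came from lanes 7 and 4, while sham libraries 1 and 2 both came from lane 7. The stem cell marker Olfm4 was also higher in library 2, at 1200 against 303 FPKM in FDG-decreased and 864 against 249 FPKM in sham ileum.

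Other genes of the same machinery mostly lay in the same direction as the set. Of 28 measured replication genes outside it 23 were lower in FDG-increased than in sham ileum (median -0.19, 0 called by limma). Of 31 mitotic genes 25 were lower (median -0.19, 0 called), where 35.3% of all genes were. By limma 4 of the 28 and 1 of the 31 had an unadjusted p under 0.05, all lower. Of all genes 7.84% did in either direction and 1.69% lower. In 7 of the 28 and 5 of the 31 the groups separated lower, beside 4.44% of all genes. Without sham replicate 1, 24 and 27 were lower, with medians of -0.31 and -0.28. Espl1, the protease that parts sister chromatids, stood at 1.57, 2.1 and 1.02 against 4.47, 4.42 and 4.54 FPKM, with very even sham libraries. It differed by -1.12 (SE 0.238), with a limma Benjamini-Hochberg adjusted p of 0.266. Orc1, of the origin recognition complex that Cdc6 and Cdt1 act upon, stood at 1.03, 1.03 and 0.946 against 1.9, 3.96 and 2.52 FPKM. Pole, the leading strand polymerase, stood at 2.84, 2.39 and 3.15 against 4.69, 6.83 and 5.33 FPKM, and Clspn, an adaptor of the replication checkpoint, at 1.48, 1.55 and 1.32 against 2.46, 2.67 and 2.83 FPKM. None of these groups overlapped, and these genes were picked for the smallest p of their lists. Dlgap5, a spindle protein, stood at 2.87, 3.46 and 5.55 against 5.61, 6.16 and 6.42 FPKM and only just separated. The checkpoint kinase Ttk overlapped, at 2.6, 2.23 and 5.43 against 4.79, 7.92 and 5.29 FPKM.

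Of the transcription factors that drive the 2 phases, 5 of 8 were lower in FDG-increased than in sham ileum (median -0.24, 0 called by limma), beside 35.3% of all genes. Without sham replicate 1, 6 of 8 were lower (median -0.23). Mybl2, which acts with the factors on the CHR, stood at 2.73, 2.41 and 2.36 against 3.69, 5.07 and 4.63 FPKM, and Foxm1, its partner on mitotic genes, at 3.7, 5.13 and 4.35 against 5.34, 8.01 and 7.79 FPKM, both without overlap. E2f1 stood at 3.05, 1.84 and 2.65 against 2.81, 4.81 and 4.59 FPKM, with overlap. In FDG-decreased against FDG-increased ileum 6 of these 8 were higher. Outside the set 27 of 28 replication genes (median 0.17) and 29 of 31 mitotic genes (median 0.21) were higher, beside 55.2% of all genes, with 0 called. Hmmr, a spindle protein, stood at 5.72, 13.2 and 12.9 against 5.15, 7.85 and 7.85 FPKM, higher in each pair but with overlapping groups. Fen1, which trims the flaps of lagging strand fragments, stood at 9.12, 4.65 and 9.72 against 6.08, 4.35 and 5.76 FPKM, also higher in each pair. Clspn stood at 2.0, 1.84 and 2.69 against 1.52, 1.29 and 1.58 FPKM, without overlap. Tacc3, of the mitotic list, stood at 15.3, 15.4 and 20.6 against 14.4, 13.7 and 12.1 FPKM, also without overlap.

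Of 12 measured genes that restrain division, 9 were higher in FDG-increased than in sham ileum (median 0.32, 0 called by limma), a share near the 64.7% of all genes. By limma 2 of the 12 had an unadjusted p under 0.05, both higher, beside 6.15% of all genes higher. Without sham replicate 1, 8 were higher, with a median of 0.22. Btg2, an antiproliferative gene that early-response stimuli also induce, stood at 142, 160 and 132 FPKM against 63.7, 46.9 and 55.1 FPKM, without overlap. It differed by 1.38 (SE 0.297), with a limma Benjamini-Hochberg adjusted p of 0.268. Ccng2, a cyclin of resting cells, stood at 83.1, 115 and 148 against 46.5, 34.2 and 61.8 FPKM, also without overlap. Cdkn1a, the inhibitor p21, stood at 35.4, 55.4 and 48.7 against 64.6, 14.1 and 31.0 FPKM, where the sham libraries spanned the whole range. In the RYGB table it stood at 39.1, 26.6 and 36.5 FPKM in FDG-decreased and 54.2, 47.8 and 51.5 FPKM in FDG-increased ileum, without overlap. Limma with the replicate block gave Cdkn1a a Benjamini-Hochberg adjusted p of 0.0914. In FDG-decreased ileum Btg2 stood at 71.9, 65.3 and 52.7 FPKM against 156, 129 and 87.9 FPKM in the FDG-increased libraries of the RYGB table. It was lower by less than the test required without the block (limma, Benjamini-Hochberg adjusted p = 1.0) and passed with the replicate block (adjusted p = 0.00893). The 11 immediate-early genes were all higher in FDG-increased than in sham ileum, beside 64.7% of all genes. Limma called 3 of them, beside 0.037% of all genes, and all 11 were higher without sham replicate 1 too. In the RYGB table these 11 summed to 176 to 478 FPKM in FDG-decreased and 361 to 1570 FPKM in FDG-increased ileum. All 11 were lower in FDG-decreased ileum, beside 44.8% of all genes. Limma called 0 without the block and 8 with it, beside 0.0% and 1.14% of all genes. The part of these 11 in the Btg2 values was not tested. Of the partners of G1, Ccnd3 stood at 40.2, 43.5 and 33.5 against 24.2, 23.1 and 32.3 FPKM in FDG-increased and sham ileum, without overlap, while Cdk4 had 64.4 ± 6.91 against 64.5 ± 4.22 FPKM (SD, n = 3 each).

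The differences of S-phase genes with and without an E2F site in the window covered overlapping ranges. In FDG-increased against sham ileum the 5 S-phase genes with an E2F site, Mcm2, Mcm5, Mcm6, Mcm7 and Tyms, differed by -0.34, -0.58, -0.56, -0.29 and 0.17. The 9 S-phase genes whose window holds none ran from -0.76 for Cdt1 to -0.01 for Cdk2.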

How the data were processed

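STAR 2.6.0a, Cufflinks 2.2.1, Cuffdiff, DESeq2 1.24.0 and bcl2fastq 1.8.4 are named, per the submitters' processing notes; their settings were not given in the sources used here. Only 1 build is listed there, hg19, which is human while the gene symbols are those of rat, and no coordinate from the files is given. The authors deposited FPKM per gene and library, scaled for each of the 2 tables separately. Rows whose symbol a spreadsheet had turned into a date (25 of 17145) were left out, and 0 sample columns were unused. Tests used log2(FPKM + 1), which understates differences of low genes, on genes averaging 1 FPKM or more over a table. Groups were compared within a table with limma 3.58.1 in R 4.3.3 (trend, robust) and Benjamini-Hochberg adjustment over all genes at 0.05. The fit was run on simulated data with independent libraries and a capped spread, which does not measure the power for the genes of the set. The genes and lists were chosen with earlier results of these data known, so lists are given as counts and medians with no test. In the RYGB table, deviations of same-numbered libraries from group means correlated at 0.85, 0.76 and 0.77, so its numbers were taken as pairs; in the sham table they gave 0.35, -0.50 and -0.25. Library values are given for genes of the set whose groups did not overlap and for the 5 S-phase and 5 mitotic genes with the largest difference in each table. For other lists they are given for some of the 3 genes with the smallest p, not for all. Ccnb2 and Aurka against sham were chosen after their values were seen.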

Additional observations from a re-analysis of the deposited data

How the results depend on the processing

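In all settings run 0 of the 35 genes were called in either comparison, and the medians of both phases kept their sign. For FDG-increased against sham ileum the number of all genes called by limma was 4, against 1 with a pseudocount of 0.1, 0 with no filter on low values, 1 with libraries shifted to the same median, 0 with quantile normalization, 39 with the replicate block and 1 relative to the epithelial marker mean. Leaving out each library gave 0 to 13 genes, S-phase medians of -0.49 to -0.37 and mitotic medians of -0.49 to -0.13. Relative to the epithelial marker mean the medians were -0.82 and -0.66. For FDG-decreased against FDG-increased ileum 0 genes became 122 with the replicate block and 346 with pairs 1 and 2 alone and the block, and leaving out each library gave 0 to 1, S-phase medians of 0.06 to 0.31 and mitotic medians of 0.09 to 0.46. The cause was not tested. The adjusted p of the genes of the set given by library ranged from 0.302 to 1.0 over these alternatives. Read depth is unknown, so genes near 1 to 3 FPKM, such as Ccne1 and Cdc6, have no counting interval.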
